A study of Arabidopsis thaliana with 21 samples.

Results

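EXPA8, EXPA15, EXPA16, EXPA18 and EXPB1 are 5 expansin genes of Arabidopsis thaliana, 4 alpha expansins and 1 beta expansin, and their transcripts were followed across 7 genotypes that differ in the synthesis of abscisic acid (ABA) and gibberellin (GA). The genes were chosen by name, with earlier results of these data known. Each was followed through the 1 probe set that the array annotation assigned to it alone. They make up 5 of the 22810 probe sets and 5 of the 18 expansin and expansin-like genes with a probe set of their own. Their loci are AT2G40610 (EXPA8), AT2G03090 (EXPA15) and AT2G20750 (EXPB1) on chromosome 2, AT3G55500 (EXPA16) on chromosome 3 and AT1G62980 (EXPA18) on chromosome 1. RNA came from the aerial parts, labelled rosette, of soil-grown plants aged 21 days, and 3 Affymetrix arrays, each with 1 sample, were run per genotype (21 in all). Beside the wild type, Col-0, there were mutants of ABA2 (aba2) or of GA20OX1 (ga20ox1), plants that overexpress either gene (ABA2-OE, GA20OX1-OE), and aba2 plants that also carry the other change (aba2/ga20ox1, aba2/GA20OX1-OE). Col-0 is the background of every line. The sources used here do not give the mutant alleles, the promoters of the transgenes, the number of lines behind a label, or whether a sample was 1 plant or a pool. By its title, the series asks how ABA and GA interact in leaf development.

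Expansins are wall proteins that loosen the contacts between cellulose and its matrix in acidic walls without cutting the polymers, which lets a cell enlarge under turgor. Alpha expansins, named EXPA, and beta expansins, named EXPB, are separate families of the same superfamily, and 2 further families are called expansin-like, EXLA and EXLB. ABA2 encodes an enzyme late in ABA synthesis, and GA20OX1 encodes an oxidase that makes precursors of active GA. GA promotes cell enlargement in shoots, whereas ABA is best known for its part in stress responses and in restraining growth.

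The values are MAS5 signals, a brightness per probe set on a linear scale, and they are given below as log2 signals with n = 3 arrays per genotype. Differences between genotypes were tested within a probe set, and since brightness also depends on the probes, percentiles of signal do not rank transcript amounts between genes. The median signal per array was 131 to 187. Of 15923 probe sets that passed a filter on low signal (a mean log2 signal of at least 5.26 over all 21 arrays), all 5 expansins were members, and among all probe sets their mean signal stood at percentile 95 for EXPA8, 78.4 for EXPA15, 66.6 for EXPA16, 54.3 for EXPB1 and 31.7 for EXPA18. A difference was called where limma's adjusted p, taken over all 15923 probe sets of a comparison, was under 0.05. What separates the arrays of a genotype is not stated, so that the p-values reflect array-to-array spread, which may be technical, and the number of arrays limits the precision. Transcripts of ABA2 and GA20OX1 themselves could not be followed, since 0 probe sets were assigned to them by name. RCA, the gene of Rubisco activase and the 1 leaf marker of 13 that the annotation named, stood at percentile 99.9. In RNA from whole rosettes, fewer cells of a type and less RNA per cell cannot be told apart.

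Loss of ABA2 moved members of this gene group in opposite directions, and in each GA background EXPA15 rose and EXPA16 fell. In aba2 against Col-0, 3 of the 5 genes were called, EXPA15 higher and EXPA16 and EXPB1 lower, where 5.03% of all probe sets were called. The median difference of the 5 genes, that of the uncalled EXPA8, was 0.64 against 0.05 for all probe sets tested. The 5 differences ran from -1.56 to 1.75, so that the median does not describe a shared rise. In aba2/ga20ox1 against ga20ox1, 2 of 5 were called, EXPA15 higher and EXPA16 lower (5.44% of all probe sets). In aba2/GA20OX1-OE against GA20OX1-OE, 3 of 5 were called, EXPA15 and EXPA8 higher and EXPA16 lower (4.52% of all probe sets). The comparison of ABA2-OE with aba2 called 3 of 5, with EXPA16 and EXPB1 higher and EXPA15 lower in ABA2-OE, beside 13.8% of all probe sets. In ABA2-OE against Col-0, 0 of the 5 were called, beside 0.226% of all probe sets. An unadjusted limma p under 0.05 was found for 2 of the 5, beside 2738 of all 15923 probe sets. Over the 9 arrays that carry aba2 and the 12 that do not, 2 of the 5 genes, EXPA15 and EXPA16, had no overlap of values, which held for 1.78% of all probe sets tested. For pairs of genotypes, with 3 arrays each, the share of probe sets without overlap was not counted. A lack of overlap between 2 genotypes, where given below, is thus a description and does not stand in for a call. Since the 5 genes were chosen with earlier results known, their shares are not those of genes picked blind.

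**Figure D1:**
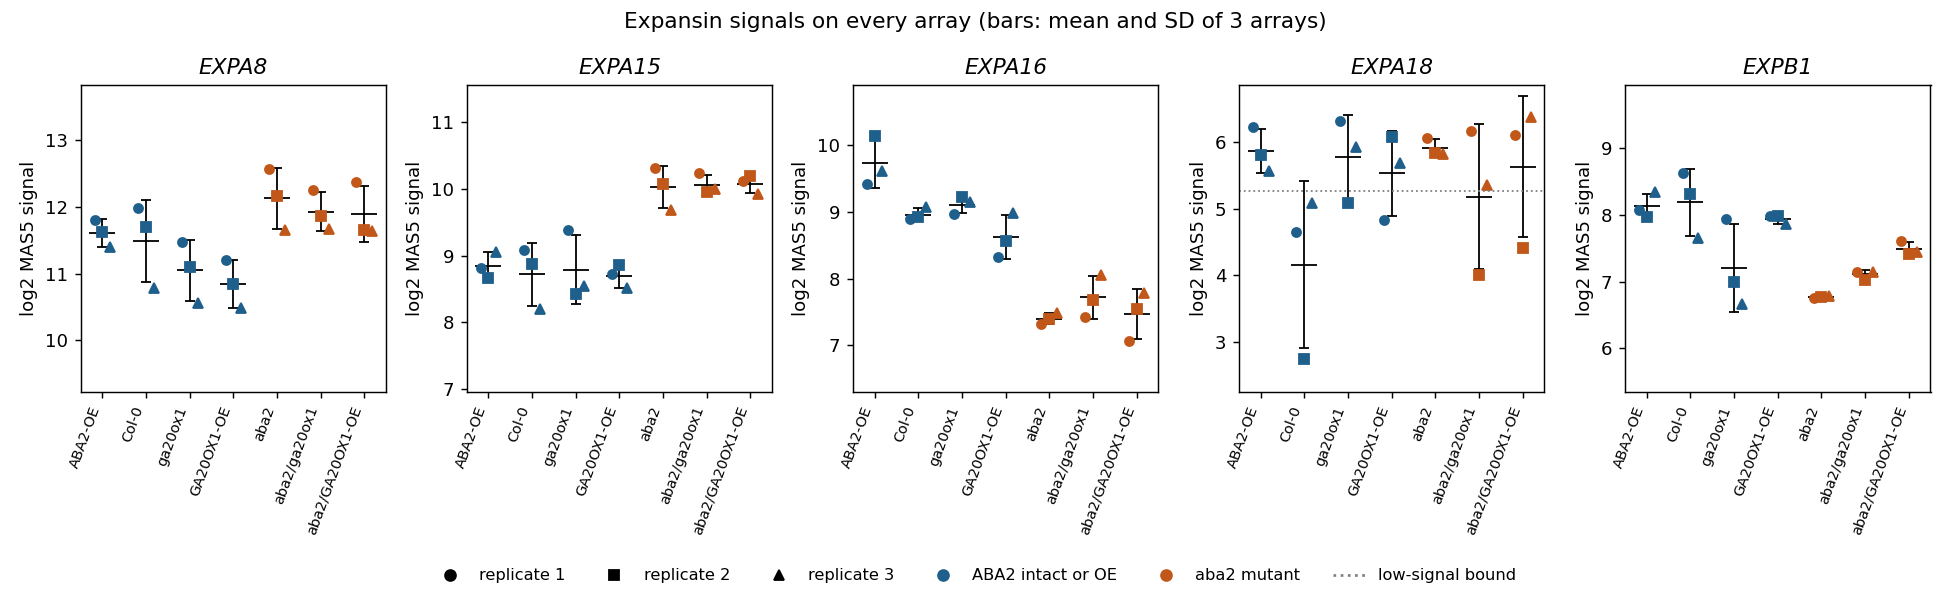
Log2 MAS5 signal (vertical axis, the same span in every panel) of the 5 expansin genes on each of the 21 arrays, by genotype. Symbols are single arrays by replicate number, black bars the mean and SD of 3 arrays, blue genotypes without and orange genotypes with the aba2 mutation, and the dotted line the low-signal bound of 5.26. The orange points of EXPA15 lie at 9.68 to 10.32, all above the blue ones, and those of EXPA16 at 7.07 to 8.06, all below them.

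EXPA15, an alpha expansin, rose without ABA2 in all 3 GA backgrounds. Its log2 signal was 10.32, 10.08 and 9.68 in aba2, 10.24, 9.95 and 10.00 in aba2/ga20ox1, and 10.12, 10.19 and 9.93 in aba2/GA20OX1-OE. In Col-0 it was 9.09, 8.87 and 8.20, in ABA2-OE 8.81, 8.67 and 9.06, in ga20ox1 9.39, 8.43 and 8.54, and in GA20OX1-OE 8.73, 8.86 and 8.51. The 7 genotypes thus fell into a high set of 3 and a low set of 4 with nothing between 9.39 and 9.68.

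Compared with Col-0, EXPA15 rose 2.48-fold in aba2 (95% interval 1.77 to 3.46; log2 difference 1.31, SE 0.23, limma adjusted p = 0.0011). The rise was 2.42-fold on loss of ABA2 in ga20ox1 (log2 difference 1.27, adjusted p = 0.0018) and 2.60-fold under GA20OX1 overexpression (1.38, adjusted p = 8e-04). Of the 6 steps in the order of the 7 means, only that from aba2 (10.03) to ABA2-OE (8.85) was called (1.18, adjusted p = 0.002). The means of the high set ran from 10.03 to 10.08 and those of the low set from 8.70 to 8.85, and neighbours within a set did not differ beyond their spread. ABA2-OE, known here by its label only, gave no call against Col-0, with a log2 difference of 0.13 (95% interval -0.35 to 0.61).

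EXPA16, also an alpha expansin, moved the other way. The signal was 7.32, 7.39 and 7.49 in aba2, 7.42, 7.68 and 8.06 in aba2/ga20ox1, and 7.07, 7.55 and 7.79 in aba2/GA20OX1-OE. In the genotypes without aba2 it was 8.89, 8.92 and 9.08 in Col-0, 8.97, 9.22 and 9.15 in ga20ox1, 8.33, 8.57 and 8.98 in GA20OX1-OE, and 9.42, 10.14 and 9.62 in ABA2-OE. All 3 arrays of ABA2-OE lay above every other array of the series.

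EXPA16 was 2.95-fold lower in aba2 than in Col-0 (95% interval 2.18 to 4.01; log2 difference -1.56, SE 0.21, limma adjusted p = 6.1e-05). On loss of ABA2 it was 2.62-fold lower in the ga20ox1 background (-1.39, adjusted p = 0.00032) and 2.22-fold lower in the GA20OX1-OE background (-1.15, adjusted p = 0.0018). Between the ends of the ABA2 series, ABA2-OE and aba2, EXPA16 differed 5.01-fold (95% interval 3.70 to 6.80; log2 difference 2.33, adjusted p = 2.2e-07), the largest difference of any of the 5 genes in the 13 comparisons of genotypes. The mean in Col-0, 8.96, lay between the mean of 7.40 in aba2 and that of 9.73 in ABA2-OE. The upper step, from Col-0 to ABA2-OE, was 0.76 (95% interval 0.32 to 1.2) without overlap of arrays, but it was not called over all probe sets (adjusted p = 0.099). Along the order of means, the step from GA20OX1-OE (8.62) to aba2/ga20ox1 (7.72) was called (0.90, adjusted p = 0.0066) and no other step was.

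EXPB1, the beta expansin of the group, fell without ABA2 in the background with wild-type GA20OX1. Its signal was 8.63, 8.31 and 7.65 in Col-0, 8.08, 7.97 and 8.34 in ABA2-OE, and 7.99, 7.98 and 7.86 in GA20OX1-OE. In aba2 it was 6.76, 6.77 and 6.79, the tightest group of any gene here (SD 0.01). The ga20ox1 arrays, at 7.94, 7.0 and 6.67, spread from the range of Col-0 to below that of aba2, while aba2/ga20ox1 lay at 7.15, 7.03 and 7.14 and aba2/GA20OX1-OE at 7.61, 7.42 and 7.45. Compared with Col-0, EXPB1 was 2.68-fold lower in aba2 (95% interval 1.86 to 3.85; log2 difference -1.42, SE 0.25, limma adjusted p = 0.0011). It was 2.13-fold lower in aba2/ga20ox1 (-1.09, adjusted p = 0.0087), a call that ended without Col-0 replicate 1 (-0.87, adjusted p = 0.065, range over all alternatives 0.002 to 0.065).

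On loss of ABA2 within the other GA backgrounds EXPB1 was not called, with -0.10 in ga20ox1 (95% interval -0.62 to 0.42) and -0.45 in GA20OX1-OE (95% interval -0.98 to 0.07, no overlap of arrays). The difference of the aba2 effect between the ga20ox1 and wild-type backgrounds was 1.32 (SE 0.36, unadjusted p = 0.0012), and over all probe sets it did not pass (adjusted p = 0.64). For GA20OX1-OE it was 0.97 (SE 0.36, unadjusted p = 0.013, adjusted p = 0.8). With array quality weights the first of these was called (1.54, adjusted p = 0.026, range over all alternatives 0.026 to 0.97). In the order of means, Col-0 (8.19), ABA2-OE (8.13), GA20OX1-OE (7.94), aba2/GA20OX1-OE (7.49), ga20ox1 (7.20), aba2/ga20ox1 (7.11) and aba2 (6.77), no step between neighbours was called.

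EXPA8, an alpha expansin, had a higher mean without ABA2 in all 3 backgrounds, but only 1 of these differences was called. The signal was 12.57, 12.16 and 11.65 in aba2, 12.25, 11.86 and 11.67 in aba2/ga20ox1, and 12.37, 11.65 and 11.64 in aba2/GA20OX1-OE. In Col-0 it was 11.98, 11.70 and 10.79, in ABA2-OE 11.81, 11.62 and 11.40, in ga20ox1 11.48, 11.10 and 10.56, and in GA20OX1-OE 11.21, 10.84 and 10.49. The arrays of aba2 and Col-0 overlapped, whereas both combinations lay above all arrays of their GA parent. EXPA8 rose 2.05-fold in aba2/GA20OX1-OE against GA20OX1-OE (95% interval 1.35 to 3.11; log2 difference 1.04, SE 0.29, limma adjusted p = 0.04). The difference was 0.88 in aba2/ga20ox1 against ga20ox1 (SE 0.29, adjusted p = 0.084) and 0.64 in aba2 against Col-0 (SE 0.29, adjusted p = 0.27).

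The call of EXPA8 under GA20OX1 overexpression depended on single arrays and settings. It ended without GA20OX1-OE replicate 2 (log2 difference 1.04, adjusted p = 0.12) or replicate 3 (0.86, adjusted p = 0.18) and without aba2/GA20OX1-OE replicate 1 (0.80, adjusted p = 0.21), replicate 2 (1.16, adjusted p = 0.053) or replicate 3 (1.16, adjusted p = 0.052). It also ended without the intensity trend (adjusted p = 0.082) and without the low-signal filter (adjusted p = 0.057). The range of its adjusted p was 5.4e-05 to 0.21. In ga20ox1, 4 of 15 alternatives called the difference, among them array quality weights (0.85, adjusted p = 0.0063), a fit of only the compared groups (0.88, adjusted p = 0.047) and leaving out ga20ox1 replicate 1 (1.1, adjusted p = 0.04), with a range over all alternatives of 0.00035 to 0.32. No step between neighbours in the order of the EXPA8 means, from aba2 (12.13) down to GA20OX1-OE (10.85), was called. In each of the 7 genotypes the array numbered replicate 1 had the highest EXPA8 signal and the array numbered replicate 3 the lowest. Such a pattern, with the same number highest and the same number lowest in all genotypes, was found in 29 of the 15923 probe sets (0.182%).

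EXPA18, an alpha expansin known from root hairs, had low and scattered signals. They were 4.65, 2.74 and 5.09 in Col-0, all under the low-signal bound of 5.26. In aba2 they were 6.06, 5.84 and 5.82 and in ABA2-OE 6.22, 5.80 and 5.56. The other genotypes held 6.32, 5.09 and 5.93 (ga20ox1), 4.83, 6.08 and 5.68 (GA20OX1-OE), 6.17, 4.0 and 5.36 (aba2/ga20ox1), and 6.10, 4.41 and 6.37 (aba2/GA20OX1-OE). The Col-0 mean of 4.16 was thus the lowest and the other 6 means lay between 5.18 and 5.91, with 0 steps between neighbours called.

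Of the 15 comparisons 0 called EXPA18. The log2 difference from Col-0 was 1.75 in aba2 (SE 0.60, limma adjusted p = 0.11) and 1.70 in ABA2-OE (SE 0.60, adjusted p = 0.16), both without overlap of arrays, and 1.62 in ga20ox1 (adjusted p = 0.7). With array quality weights the first of these was called (1.93, adjusted p = 0.045, range over all alternatives 0.044 to 0.4). No fold is given, since Col-0 lay under the bound, and with a pseudocount of 20.1 these differences were 0.99, 0.96 and 0.91. Without aba2/GA20OX1-OE replicate 2, EXPA18 was called in aba2/GA20OX1-OE against Col-0 (2.07, adjusted p = 0.045, range over all alternatives 0.04 to 0.51). Of 19 fixed root and root hair markers the annotation named 2 beside it. EXPA7, the other root hair expansin, did not pass the filter, with means of 2.62 to 4.36. The root beta-glucosidase gene PYK10 had its highest mean in ga20ox1 (10.68) and stood at 9.78 in Col-0, 9.66 in aba2 and 9.28 in ABA2-OE. Its lowest mean was that of aba2/GA20OX1-OE (8.68), where it was called lower than in Col-0 (-1.1, limma adjusted p = 0.0079), GA20OX1-OE (-1.62, adjusted p = 0.00035) and aba2/ga20ox1 (-1.31, adjusted p = 0.0049). The summed signal of both markers, nearly all of it from PYK10, was 826 to 991.9 in Col-0, 565.8 to 681.3 in ABA2-OE and 765.9 to 924.1 in aba2. It was 1573 to 1746 in ga20ox1, 1075 to 1634 in GA20OX1-OE, 901.4 to 1211 in aba2/ga20ox1 and 234.5 to 705.3 in aba2/GA20OX1-OE. The part of this signal in the EXPA18 values was not tested.

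**Figure D2:**
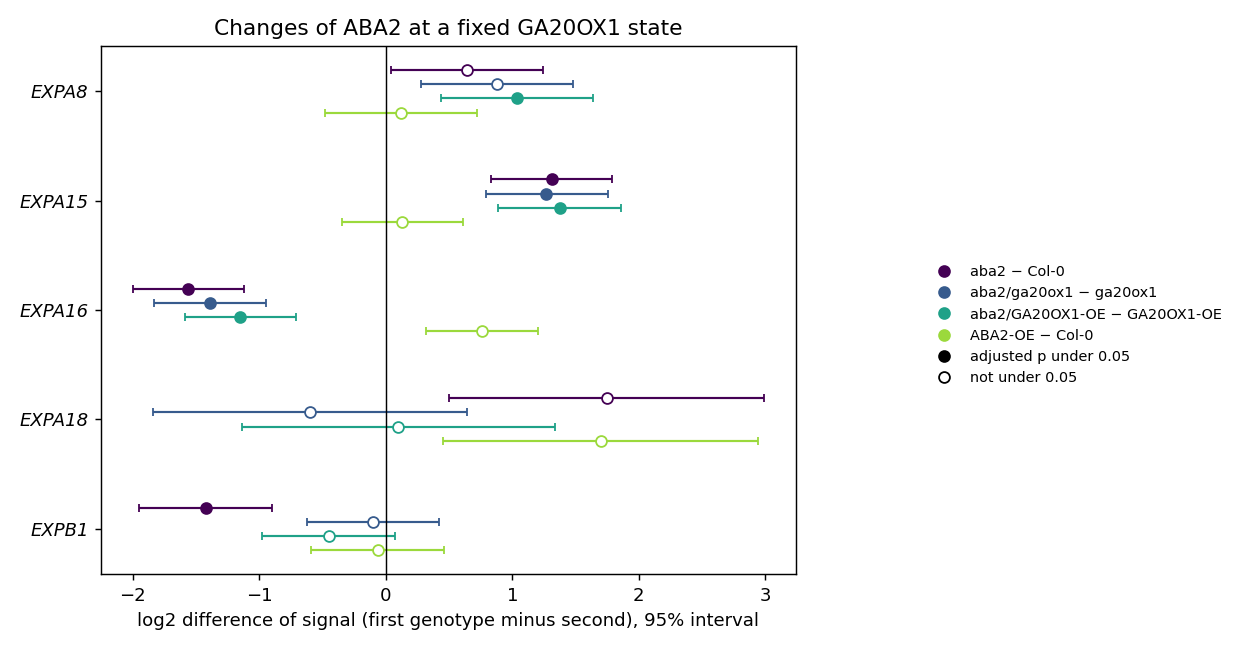
Log2 difference of signal with its 95% interval (horizontal axis) when ABA2 changes and GA20OX1 does not, for the 5 genes; filled points have an adjusted p under 0.05. The 3 losses of ABA2 put EXPA15 at 1.27 to 1.38 and EXPA16 at -1.56 to -1.15, while the values of EXPB1 run from -1.42 to -0.10.

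Against Col-0 the combinations carried the same calls for EXPA15 and EXPA16 as aba2 did. In aba2/ga20ox1, 3 of 5 genes were called, EXPA15 by 1.35 and, lower, EXPA16 by -1.24 and EXPB1 by -1.09, beside 7.37% of all probe sets. In aba2/GA20OX1-OE, 2 of 5 were called, EXPA15 by 1.36 and EXPA16 by -1.49, beside 8.62% of all probe sets. EXPB1, at -0.70 there, missed the threshold (adjusted p = 0.089), and was called without Col-0 replicate 3 (-0.98, adjusted p = 0.021, range over all alternatives 0.021 to 0.36). All comparisons with Col-0 share its 3 arrays.

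Changes of GA20OX1 called 0 of the 5 genes in 6 comparisons. The adjustment asks for a lower unadjusted p where fewer probe sets of a comparison have low ones. Calls therefore do not rank the strength of differences between comparisons. EXPB1 in ga20ox1 against Col-0 was not called at an unadjusted limma p of 0.00074. EXPA8 in aba2/GA20OX1-OE against GA20OX1-OE was called at an unadjusted p of 0.0017. With ABA2 intact, 0 of 5 were called in ga20ox1 against Col-0 (0.0126% of all probe sets called), GA20OX1-OE against Col-0 (0.0188%) and GA20OX1-OE against ga20ox1 (0.132%). In each of these, 2 of 5 had an unadjusted limma p under 0.05. Over all 15923 probe sets the numbers were 971, 2010 and 1571, in the same order. In the aba2 mutant, 0 of 5 were called in aba2/ga20ox1 against aba2 (0.00628%), aba2/GA20OX1-OE against aba2 (0.76%) and aba2/GA20OX1-OE against aba2/ga20ox1 (3.91%). There 0, 1 and 0 of 5 had an unadjusted limma p under 0.05, beside 1033, 1587 and 3351 of all probe sets.

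The 95% intervals give a range for the size of each difference. They are not adjusted over probe sets, so they do not mark where a call would begin. For EXPA15 the 6 differences were -0.09 to 0.07, and no 95% interval reached beyond -0.57 or 0.55. Those of EXPA16 were -0.49 to 0.32, the lowest being GA20OX1-OE against ga20ox1 (95% interval -0.93 to -0.05, limma adjusted p = 0.47). With array quality weights this lowest difference was called (-0.56, adjusted p = 0.025, range over all alternatives 0.025 to 0.76). EXPA8 was -0.64 in GA20OX1-OE against Col-0 (95% interval -1.24 to -0.04, adjusted p = 0.37) and -0.44 in ga20ox1 (95% interval -1.04 to 0.16), neither of them called.

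EXPB1 had the widest range among these comparisons apart from EXPA18. It was -0.99 in ga20ox1 against Col-0 (95% interval -1.51 to -0.47, limma adjusted p = 0.28), 0.74 in GA20OX1-OE against ga20ox1 (95% interval 0.22 to 1.26, adjusted p = 0.31) and 0.72 in aba2/GA20OX1-OE against aba2 (95% interval 0.20 to 1.24, adjusted p = 0.27, no overlap of arrays). Without ga20ox1 replicate 1, the 1 array of its group near the Col-0 range, the first of these was called (-1.36, adjusted p = 0.02, range over all alternatives 0.0057 to 1). Array quality weights called all 3. The first was -1.22 (adjusted p = 0.0057), the second 0.91 (adjusted p = 0.0012, range over all alternatives 0.0012 to 0.67) and the third 0.78 (adjusted p = 0.02, range 0.02 to 0.55).

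**Figure D3:**
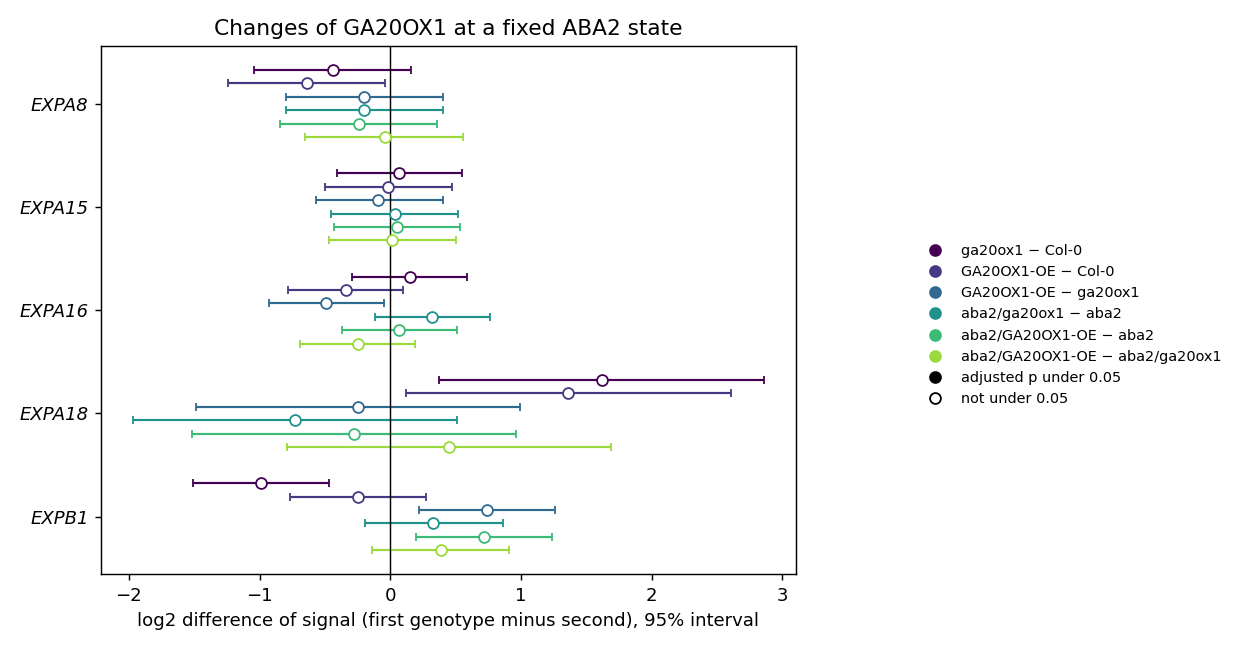
Log2 difference of signal with its 95% interval (horizontal axis) when GA20OX1 changes and ABA2 does not, for the 5 genes; open points have an adjusted p of 0.05 or more. Every point is open, and the EXPA15 points lie between -0.09 and 0.07.

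Interactions asked whether loss of ABA2 acted differently when GA20OX1 was also changed. For aba2 with ga20ox1, 0 of 5 genes were called (0% of all probe sets; limma found 1156 probe sets, 2 of them among the 5 genes, at an unadjusted p under 0.05). For aba2 with GA20OX1-OE, 0 of 5 were called (0.0377% of all probe sets). Here limma found 847 probe sets, 1 of them among the 5 genes, at an unadjusted p under 0.05. For EXPA15 the interactions were -0.04 (95% interval -0.72 to 0.65) and 0.07 (-0.62 to 0.75), for EXPA16 0.17 (-0.45 to 0.80) and 0.41 (-0.21 to 1.03).

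The spread between arrays of a genotype was shared by some of the genes. For each array the deviation from its genotype mean was taken, and over the 21 arrays those of EXPA15 and EXPB1 had a Pearson r of 0.84, those of EXPA8 and EXPA15 0.73, and those of EXPA8 and EXPB1 0.66. The deviations of EXPA16 ran opposite to those of EXPA8 (-0.63), EXPA15 (-0.47) and EXPB1 (-0.35), and those of EXPA18 with the other 4 genes lay at -0.04 to 0.04. In all 7 genotypes the array numbered replicate 1 was the highest for EXPA8 and the lowest for EXPA16, so that their r goes with the replicate number. Of 15923 probe sets, 226 (1.42%) had the same number lowest in all 7 genotypes, and 185 (1.16%) had the same number highest. EXPA15 and EXPA16 deviated the same way on 3 of 21 arrays, EXPA15 and EXPB1 on 16. These are descriptions, and the genes share the arrays and their scaling.

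The positive correlations were smaller without the arrays of Col-0 and ga20ox1, and the negative ones were not. On Col-0 replicate 3 the deviations were -0.70 for EXPA8, -0.52 for EXPA15 and -0.55 for EXPB1. On ga20ox1 replicate 1 they were 0.43, 0.60 and 0.74. The SD of EXPB1 was 0.50 in Col-0 and 0.66 in ga20ox1, against 0.01 to 0.19 in the other 5 genotypes. Without these 6 arrays the r was 0.48 for EXPA15 and EXPB1, 0.57 for EXPA8 and EXPA15, and 0.19 for EXPA8 and EXPB1. With EXPA16 it was -0.72 for EXPA8, -0.53 for EXPA15 and -0.55 for EXPB1. The median signal of all probe sets without the controls was 157 on Col-0 replicate 3, against 136 and 138 on replicates 1 and 2, and 136 on ga20ox1 replicate 1, against 145 and 168. After quantile normalization the r of EXPA15 and EXPB1 was 0.91 and those with EXPA16 were -0.54 for EXPA8, -0.27 for EXPA15 and -0.18 for EXPB1.

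**Figure D4:**
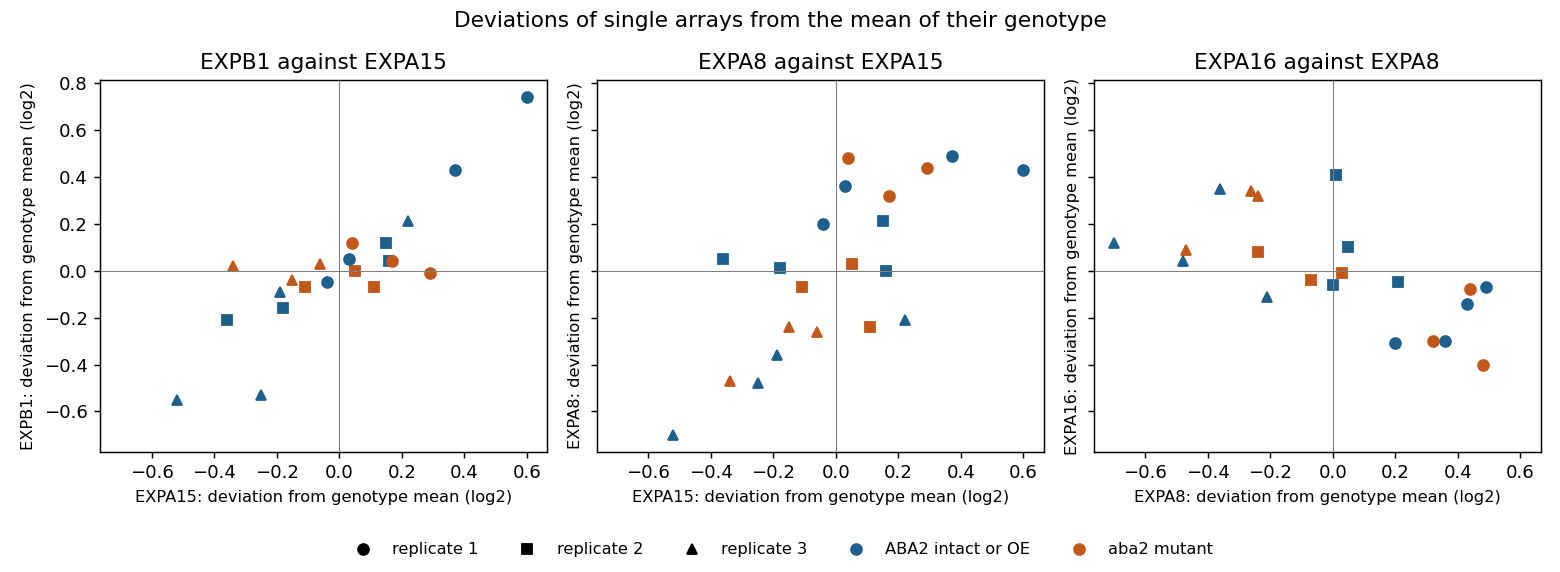
Deviation of each of the 21 arrays from the mean of its genotype (log2 signal) for 3 pairs of expansin genes, with symbols for replicate numbers and colours for the ABA2 state. EXPB1 and EXPA8 rise along EXPA15 (r = 0.84 and 0.73), and EXPA16 runs against EXPA8 (r = -0.63).

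For each of the 5 genes the 3 others most like it over the 21 arrays were taken among 8760 genes with a tested probe set, by Pearson r of log2 signal. For EXPA16 these were AT3G26510 (0.92), COR15A (0.90), the cold and ABA induced gene of a chloroplast protein, and AT4G30650 (0.90). COR15A stood at 9.18 in aba2, 12.83 in Col-0 and 13.70 in ABA2-OE. For EXPA15 they were AT4G24780 (0.94), AT1G20070 (0.93) and AT2G17710 (0.93), and all 3 rose in aba2 (0.82, 1.22 and 1.53). For EXPB1 they were AT4G01410, AT4G18970 and the beta-tubulin gene TUB7, each at 0.86, and for EXPA8 AT1G10770 (0.89), the vacuolar processing enzyme gene GAMMA-VPE (0.88) and AT5G19290 (0.86). EXPA18 had no like of that closeness, its first 3 being AT4G38380 (0.66), AT5G20170 (0.66) and AT3G47180 (0.65). Over the deviations from genotype means, the r was 0.22 to 0.37 for the 3 genes like EXPA16 and 0.56 to 0.80 for those like EXPA15. Since all these genes were picked by r over the same arrays, their differences between genotypes follow from the choice and are no separate result.

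The rest of the expansin superfamily on the array held 13 genes, of which 7 passed the filter. In aba2 against Col-0, 3 of the 7 were called, beside 5.03% of all probe sets, all of them expansin-like and lower, EXLA1 (-2.85, SE 0.63, limma adjusted p = 0.0078), EXLA2 (-2.73, SE 0.50, adjusted p = 0.0015; under the low-signal bound in aba2) and EXLB1 (-1.21, SE 0.25, adjusted p = 0.005). The median of the 7 was 0.13 against 0.05 for all probe sets. None of the 4 other true expansins that were tested, EXPA4, EXPA9, EXPA20 and EXPB3, was called there. EXPA4 was called higher in aba2/ga20ox1 (0.73, adjusted p = 0.017) and aba2/GA20OX1-OE (0.67, adjusted p = 0.026) against Col-0, and in aba2/GA20OX1-OE against GA20OX1-OE (0.78, adjusted p = 0.015). Its means were 10.31, 10.45 and 10.40 in the 3 aba2 genotypes, 9.72 in Col-0, 9.86 in ga20ox1 and 9.62 in GA20OX1-OE, but also 10.31 in ABA2-OE.

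Other wall-modifying genes were counted by list in aba2 against Col-0, where 5.03% of all probe sets were called. Of 5 tested genes for xyloglucan-modifying enzymes (XTH family, 10 named), EXGT-A3 fell (-1.34, SE 0.20, limma adjusted p = 0.00016) and XTH19 rose (1.72, SE 0.45, adjusted p = 0.024; Col-0 under the bound), with a list median of -0.47. Of 8 tested endoglucanase genes of the GH9 family (15 named), GH9B8 fell (-0.81, SE 0.15, adjusted p = 0.0015), with a median of -0.13. Of 2 tested pectin-modifying genes (4 named) 0 were called, with a median of -0.27. Lists of plasma membrane proton pumps and SAUR genes had 0 members named. Markers of other cell types were few: the annotation named 4 of 9 guard cell, 1 of 6 trichome and 2 of 15 flower and pollen markers. The summed signal of the guard cell markers was 472.2 to 555.9 in aba2, 384.4 to 414.9 in Col-0 and 267.1 to 327.8 in ABA2-OE. It was 432.9 to 578.8 in ga20ox1, 348.5 to 479.8 in GA20OX1-OE, 383.2 to 527.5 in aba2/ga20ox1 and 315.1 to 461.9 in aba2/GA20OX1-OE. Of the 3 that were tested, 0 were called in aba2 against Col-0, and 1 was called lower in ABA2-OE than in aba2 (13.8% of all probe sets called there). The trichome marker TRY, which did not pass the filter, had means of 5.58 in aba2, 5.53 in Col-0 and 4.99 in ABA2-OE, and of 4.19 to 5.74 in the other genotypes. The summed signal of the flower and pollen markers was 197.7 to 885.8 in aba2, 309.8 to 354.5 in Col-0 and 315.9 to 378.6 in ABA2-OE. It was 231.5 to 327.9 in ga20ox1, 334.2 to 521.4 in GA20OX1-OE, 200.9 to 390.8 in aba2/ga20ox1 and 1053 to 1764 in aba2/GA20OX1-OE. Of these markers, the anther gene ATA27 was called higher in aba2 than in Col-0 (4.74, limma adjusted p = 0.0066, Col-0 under the bound). The reproductive actin gene ACT11 was called lower (-0.86, adjusted p = 0.0081). The part of these cell types in the expansin differences was not tested.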

How the data were processed

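The authors deposited an intensity per probe set on a linear scale, and the submitters' processing notes name MAS5. Its version and scaling target were not stated. In the deposited table each array had a mean of 500 once 2% of its probe sets at either end were set aside. Without the 64 AFFX controls, log2 values were used with no further normalization, and the 30% of 22746 probe sets with the lowest mean were dropped.

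Genes were named from the supplied platform annotation and RefSeq symbols (13436 probe sets with 1 gene). Differences came from limma 3.58.1 in R 4.3.3 (lmFit, eBayes with trend) in 1 fit of 7 genotype means over 21 arrays, two-sided, adjusted by Benjamini-Hochberg over 15923 probe sets in each of 15 comparisons. The 95% intervals are not adjusted. Tables used Python 3.11.15, pandas 2.3.3 and scipy 1.17.1, and the fit was tested on simulated data. For aba2 against Col-0, 50 changes of each size were simulated. Of log2 changes of 0.5, 12% were called, of 1.0 52%, of 2.0 96% and of 3.0 100%, with 5 false calls. Real differences near 1.0 or smaller can thus go uncalled.

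Alternatives were no trend, array weights, the replicate number as a block, only the compared groups, no filter, a filter leaving out 50%, a pseudocount of 20.1, quantile normalization, leaving out each array, and leaving out GA20OX1-OE replicate 2 with aba2/GA20OX1-OE replicate 3. Correlations without Col-0 and ga20ox1 arrays were added after seeing the data. Named genes were the 5 members, for each the 3 with the highest r, and the 2 largest called rises and falls of a list, with the markers. The uncalled expansins were named after their values were seen. The members and lists were chosen with earlier results of these data known. No sequences were used here.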

Additional observations from a re-analysis of the deposited data

How the results depend on the processing

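The log2 difference of every called gene kept its direction under all alternatives, and 231 of 240 values stayed called, while 9 of 240 did not (8 for EXPA8, 1 for EXPB1). Of 930 values of differences not called, 20 became called. With array quality weights the number of the 5 genes called was 4 in aba2 against Col-0 (EXPA18 added, 1.93, adjusted p = 0.045), 3 in aba2/ga20ox1 against ga20ox1 (EXPA8 added, 0.85, adjusted p = 0.0063), 1 in ga20ox1 against Col-0, 4 in aba2/GA20OX1-OE against Col-0, 1 in aba2/GA20OX1-OE against aba2, 2 in GA20OX1-OE against ga20ox1 and 1 in the interaction of aba2 with ga20ox1, in place of 3, 2, 0, 2, 0, 0 and 0. Leaving out each array gave 0 to 1 in ga20ox1 against Col-0. With the replicate number as a block it was 5 in place of 3 in aba2 against Col-0, with EXPA8 (adjusted p = 0.0053) and EXPA18 (0.044) added, and 1 in place of 0 in ABA2-OE against Col-0, EXPA16 (0.036). The block also called EXPA8 in ABA2-OE against aba2 (0.013), aba2/ga20ox1 against Col-0 (0.047) and against ga20ox1 (0.00035), and kept its call in aba2/GA20OX1-OE against GA20OX1-OE (5.4e-05). The labels do not say what a shared number stands for. Deviations of same-numbered arrays correlated at -0.25 to 0.49 (31 of 63 pairs over 0.1), and 16 of 21 arrays were closest on average to their own number, a hint from the data, not the design.

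Counts of all called probe sets moved more. Against Col-0, array by array left out, the 801 calls of aba2 became 491 to 739, the 36 of ABA2-OE 3 to 242, the 2 of ga20ox1 0 to 5, the 3 of GA20OX1-OE 0 to 7, the 1174 of aba2/ga20ox1 657 to 1060 and the 1373 of aba2/GA20OX1-OE 822 to 1187. The range was 949 to 2313 in ABA2-OE against aba2 (2192), 460 to 1048 in aba2/ga20ox1 against ga20ox1 (867), 412 to 556 in aba2/GA20OX1-OE against GA20OX1-OE (720), 1 to 4 in aba2/ga20ox1 against aba2 (1), 43 to 157 in aba2/GA20OX1-OE against aba2 (121), 4 to 47 in GA20OX1-OE against ga20ox1 (21), 308 to 502 in aba2/GA20OX1-OE against aba2/ga20ox1 (623), and 0 to 0 and 0 to 13 in the interactions with ga20ox1 (0) and GA20OX1-OE (6). Array quality weights gave 93 calls in ga20ox1 against Col-0, 4694 in ABA2-OE against aba2, 3339 in aba2/ga20ox1 against ga20ox1, 1384 in aba2/GA20OX1-OE against GA20OX1-OE, 387 in aba2/GA20OX1-OE against aba2 and 2394 in GA20OX1-OE against ga20ox1. Fitting only the compared groups gave 547 in aba2/GA20OX1-OE against Col-0. Leaving out GA20OX1-OE replicate 2 together with aba2/GA20OX1-OE replicate 3, the arrays in doubt, ended the call of EXPA8 in aba2/GA20OX1-OE against GA20OX1-OE (1.16, adjusted p = 0.12, range over its alternatives 5.4e-05 to 0.21) and gave 321 in aba2/GA20OX1-OE against GA20OX1-OE and 321 in aba2/GA20OX1-OE against aba2/ga20ox1. The cause of these moves was not tested. EXPA18 had no value under the stricter filter. Quantile normalization moved the median of all differences by -0.12 in aba2/GA20OX1-OE against aba2/ga20ox1 and -0.11 in aba2/GA20OX1-OE against Col-0.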
